A study of Homo sapiens with 8 samples.

Results

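The genes described here are the 39 genes of the integrated stress response and of the amino acid supply that it serves: the kinases of the translation factor eIF2, the transcription factors ATF4 and CHOP with their partners, their feedback genes, the enzymes of serine and one-carbon metabolism, and amino acid transporters. They were taken by symbol from the table of counts, where all 39 were found among 62700 rows, and all 39 passed the filter on low counts. The samples were THP-1 cells, an established human monocytic leukaemia line, made into macrophages with 50 ng/mL of the phorbol ester PMA for 72 h and loaded for 48 h with acetylated LDL, a modified lipoprotein that macrophages take up to become foam cells. One group of 4 libraries received the vehicle DMSO (below 0.1% by volume) and the other group of 4 received 0.5 µM auranofin (AF), a gold compound that inhibits thioredoxin reductase. The sample protocol starts the drug 24 h before the lipoprotein and keeps it on to the end, while the series' design text puts the drug after the loading. All cells in both groups carried PMA and acetylated LDL, so there is no unloaded or untreated macrophage among them, and one cell line stands for the macrophage.

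The integrated stress response begins when a kinase (PERK, encoded by EIF2AK3, under protein misfolding in the endoplasmic reticulum; GCN2, encoded by EIF2AK4, under amino acid shortage; HRI, encoded by EIF2AK1, under haem shortage and mitochondrial or oxidative stress) phosphorylates the alpha subunit of eIF2, encoded by EIF2S1. Bulk translation then slows, while the ATF4 messenger is translated more. ATF4 switches on genes for amino acid uptake and synthesis together with CHOP (DDIT3), ATF3 and feedback genes that let translation resume. Because the step from eIF2 to ATF4 is one of phosphorylation and translation, messenger counts do not measure it directly.

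ATF4 and its relatives bind composite elements in the promoters of their targets, which is why the matches in these genes are shown first. RefSeq promoters on GRCh38.p14 (250 bases before to 50 after each start) were at hand for 32 of the 39 genes, in 53 windows. The C/EBP-ATF response element was searched as TGATGNAA on both strands, and 13 of the 53 windows held it (24.5%), against 3.62% of all 35116 windows of the same length. By gene, 11 of 32 held it in at least 1 window, against 1217 of all 27305 genes (4.46%). Of these 11, ATF3, CHAC1 and SLC3A2 were higher with auranofin, MTHFD1L was lower, and ASNS, CEBPG, JDP2, PPP1R15B, SLC1A4, SLC1A5 and SLC7A1 were not called. The stricter form TGATGCAA, which is contained in the first, was in 9 of 53 windows (17%) and in 0.866% of all windows. By gene it was in 7 of 32, against 1.08% of all genes. The 39 genes were chosen as genes of this pathway, so their share of matches is not independent of that choice. A match of letters is a description and not a binding site, and elements outside these windows were not searched. The sites are printed 5′ to 3′ on the strand of the gene with the matched letters in capitals.

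ATF3 (chr1:212565206-212565233, plus strand, called higher): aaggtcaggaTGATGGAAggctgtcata

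CHAC1 (chr15:40953252-40953279, plus strand, called higher, reverse orientation): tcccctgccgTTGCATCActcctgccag

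MTHFD1L (chr6:150866347-150866374, plus strand, called lower): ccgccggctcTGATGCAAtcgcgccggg

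ASNS (chr7:97872459-97872486, minus strand, not called): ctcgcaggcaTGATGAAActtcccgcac

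CEBPG (chr19:33374061-33374088, plus strand, not called): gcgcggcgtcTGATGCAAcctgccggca

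SLC1A5 (chr19:46784894-46784921, minus strand, not called): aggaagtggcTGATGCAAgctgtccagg

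JDP2 (chr14:75427996-75428023, plus strand, not called): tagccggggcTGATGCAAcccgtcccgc

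These 7 sites show that genes called higher, called lower and not called carried the same core letters. Counted from the RefSeq start of the window that held it, the match lay 191 bases upstream in ATF3 and 209 in CHAC1. It lay 68 bases upstream in ASNS and 42 in CEBPG. In MTHFD1L the same site fell in the windows of 3 starts, so it counts 3 times in the shares by window. In 1 of these windows it lay after the start. Each site was compared with GENCODE 29 exons together with its flanking bases, up to the start. By this measure the ATF3, CEBPG and JDP2 sites lay outside exons of their gene. Those of CHAC1, ASNS and SLC1A5 overlapped an exon of another transcript of it, as did that of MTHFD1L in the windows where it lay before the start. Such an overlap may lie in the flanking bases alone. ATF3, the gene with the largest rise, also had a window with chr1:212614768-212615017 before its start, which held no match to any element searched. Which start these cells used was not tested. For the window with the match, the stretch printed next is chr1:212565157-212565333 on the plus strand. It runs from 250 bases before that start to the first annotated exon, with the same match in capitals.

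ATF3: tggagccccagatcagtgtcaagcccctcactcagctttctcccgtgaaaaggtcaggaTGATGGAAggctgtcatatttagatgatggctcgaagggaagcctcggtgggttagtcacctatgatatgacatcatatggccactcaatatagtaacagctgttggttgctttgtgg

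Another pair of elements, those of CREB/ATF and AP-1 factors, was searched in the same windows. The palindrome TGACGTCA was in 1 of 53 windows (1.89%, against 1.85% of all windows), that of PPP1R15A, which rose.

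PPP1R15A (chr19:48872353-48872380, plus strand): cctctcttcgTGACGTCAgcacgccggg

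The AP-1 letters TGANTCA were in 5 of 53 windows (9.43%, against 7.71% of all windows), in ATF5, DDIT3, SLC3A2 and EIF2AK4.

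DDIT3 (chr12:57520739-57520765, minus strand): cgcgcgcgcaTGACTCAcccacctcct

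Over the libraries as a whole, total counts ran from 19336073 to 32325981. AF replicate 1 stood apart: entries of the ribosomal RNA repeats made up 34.8% of it, where the 7 others had 0.747% to 0.967%, and its composition (TMM) factor was 0.679, where theirs were 1.04 to 1.08. Levels are given as CPM, counts brought to a common library size with these factors, and the counts of called genes are also given without this library. The 8 macrophage markers checked (CD14, CSF1R, ITGAM, SPI1, LYZ, TYROBP, MSR1 and CD163) had 2668 to 39199 counts in each library, while CD3E, MS4A1, EPCAM, KRT19 and COL1A2 had 0 or 1. PECAM1, an endothelial marker that myeloid cells also carry, had 5582 to 10893. The labels do not say that the libraries came from separate cultures. The p-values thus set the difference between groups against the scatter of these 8 libraries, and that scatter may be technical. Libraries whose names share a stem may also belong together, which the labels do not say. In bulk RNA fewer cells with a transcript and less of it per cell cannot be told apart.

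With auranofin, 4 of 7 transcription factors and 5 of 8 feedback and effector genes of the response rose, while most enzymes and transporters of the amino acid supply were not called. Of the 39 genes 11 were higher (28.2%, against 7.62% of all 17535 genes tested) and 2 were lower (5.13%, against 7.81%) at an adjusted p under 0.05 in edgeR's quasi-likelihood test, adjusted over all genes tested. The share of lower genes was near the background. The 11 were ATF3, DDIT4, DDIT3, CHAC1, SESN2, PPP1R15A, CTH, TRIB3, ATF5, SLC3A2 and ATF4, in order of size, and the 2 were MTHFD1L and CBS. All 4 AF values stood above all 4 DMSO values in 10 of the 39 genes (25.6%, against 9.86% of all genes), and below them in 2 (against 9.68%). The median log2 fold change of the 39 genes was 0.13, and that of all genes 0.005. Without AF replicate 1 the counts were 11 higher (background 6.82%) and 3 lower (background 8.2%), and 10 of the 11 were shared with the full set. When only the library totals set the scale, ribosomal RNA of AF replicate 1 included, 3 genes were higher (ATF3, DDIT3 and DDIT4) and 1 lower (MTHFD1L), and the median of all genes moved to -0.14.

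**Figure D1:**
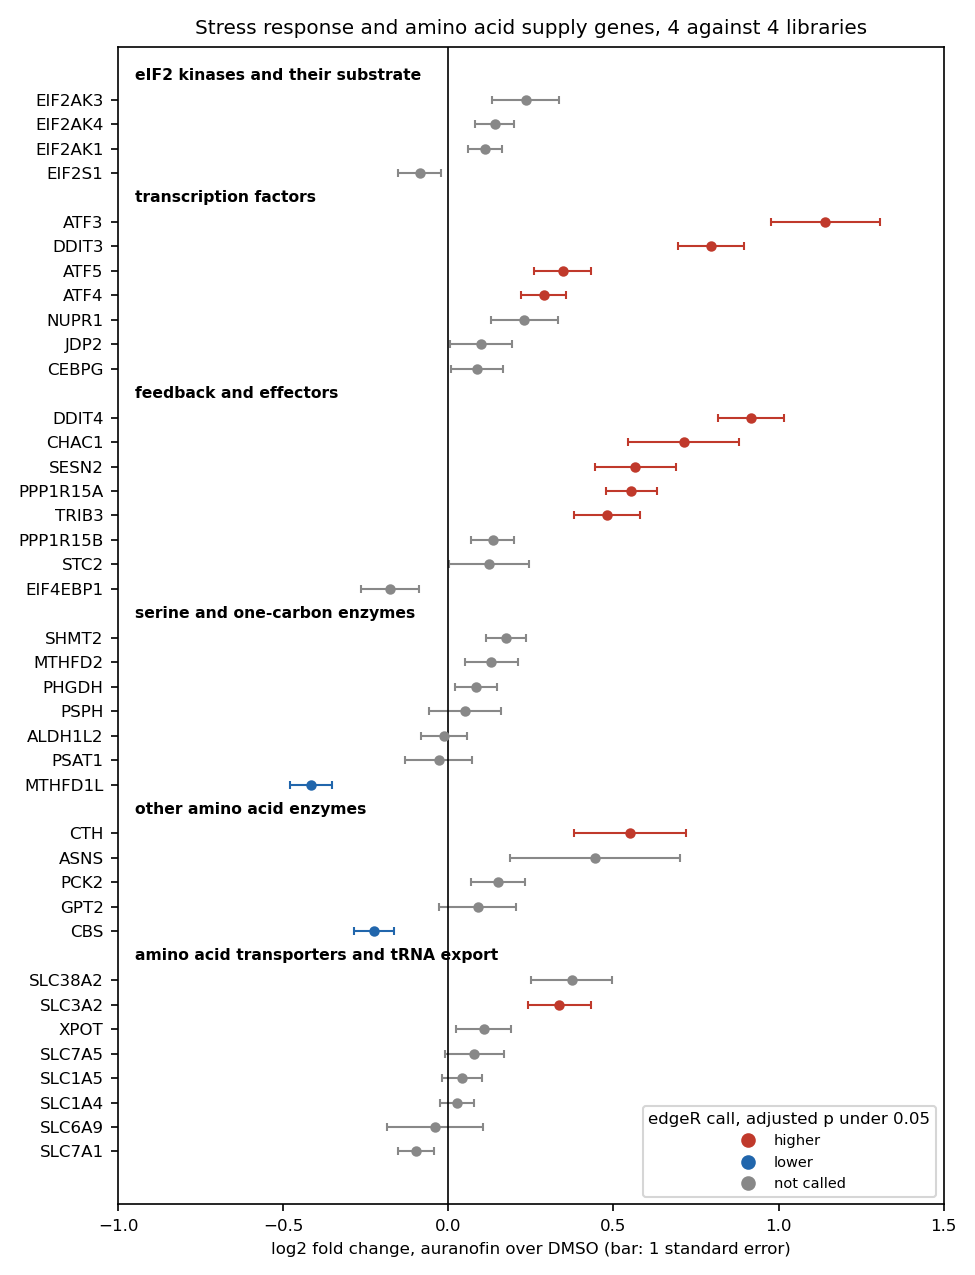
Log2 fold change of each of the 39 genes (auranofin over DMSO, points) with 1 standard error (bars), by role, with 4 libraries per group; red is called higher, blue called lower and grey not called by edgeR. ATF3 lies farthest right at 1.14 and MTHFD1L farthest left at -0.42, and 9 of the 11 red points are transcription factors or feedback genes.

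The counts by role group are read beside the shares of all genes tested, 7.62% called higher and 7.81% called lower. In groups of 4 to 8 genes, 0 or 1 calls do not set a group apart from these shares. Of 8 feedback and effector genes 5 were higher and 0 lower, with a median log2 fold change of 0.52. Of 7 transcription factors 4 were higher and 0 lower, with a median of 0.29. Of 7 serine and one-carbon enzymes 0 were higher and 1 was lower (MTHFD1L and SHMT2 were the 2 with an unadjusted p under 0.05 in edgeR, and DESeq2 also called SHMT2 higher), with a median of 0.05. Of 5 other amino acid enzymes 1 was higher and 1 lower (median 0.15), and of 8 transporters and export factors 1 was higher and 0 lower (median 0.06). Of the 3 eIF2 kinases and eIF2 alpha 0 were called by edgeR (median 0.13) or by DESeq2. Of these 4 genes 3 had an unadjusted p under 0.05 in edgeR. The background for this count, and for the 2 of 7 serine and one-carbon enzymes, was 5216 of all 17535 genes tested. An unadjusted p under 0.05 was thus common among all genes. With library totals alone the medians of the feedback genes and transcription factors were 0.35 and 0.13, and the other medians turned negative: -0.11 for serine and one-carbon enzymes, -0.10 for transporters, -0.02 for the kinases and -0.01 for other enzymes. Leaving out 1 library moved the smaller medians by more than 1.5 times: that of serine and one-carbon enzymes lay between -0.0076 (without DMSO replicate 3) and 0.097 (without DMSO replicate 1), and was 0.018 without AF replicate 1. That of transporters lay between 0.0099 and 0.097 without the same 2 DMSO libraries and was 0.023 without AF replicate 1, and that of other enzymes was 0.23 without DMSO replicate 1 and 0.098 without AF replicate 1. No test compared the groups with each other.

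Among the transcription factors, ATF3, which represses and activates stress genes and is itself a target of ATF4, changed most. It stood at 34.1, 19.8, 19.6 and 30.3 CPM in DMSO replicates 1 to 4 and at 65.1, 47.2, 51.6 and 65.7 CPM in AF replicates 1 to 4. The groups did not overlap, and in each of them replicates 1 and 4 were higher than 2 and 3. Its mean rose from 26.0 ± 7.39 to 57.4 ± 9.37 CPM (SD, n = 4), a log2 fold change of 1.14 ± 0.16 (SE) or 2.21-fold, with an adjusted p of 0.000336 in edgeR. Leaving out any one library kept the log2 fold change between 1.03 and 1.31.

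DDIT3, which encodes CHOP, a factor that favours cell death when stress lasts, stood at 140.2, 107, 104 and 131 CPM in DMSO and at 235, 201, 177 and 225 CPM in AF. The lowest AF library was above the highest DMSO library, and again replicates 1 and 4 led in both groups. The log2 fold change was 0.80 ± 0.10, or 1.74-fold (adjusted p = 0.000119, edgeR). DDIT3 overlaps exons of neighbouring genes on the other strand over 31.6% of its exon bases and on its own strand over 8.03%, so how overlapping reads were assigned bears on its counts.

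ATF4 itself, the central factor, rose less. It stood at 493, 448, 434 and 445 CPM in DMSO and at 573, 583, 534 and 535 CPM in AF, without overlap. The log2 fold change was 0.29 ± 0.07, or 1.22-fold, with a 95% interval from 1.11 to 1.35 (adjusted p = 0.0102, edgeR). ATF4 pseudogenes share its sequence, and ATF4P3 held 524 to 1155 counts and ATF4P4 183 to 461, against 9272 to 19666 for ATF4. ATF5, a relative that is translated under the same conditions, ranged from 112 to 130.4 CPM in DMSO and from 129 to 174 in AF, with AF replicates 2 and 3 highest, and its log2 fold change was 0.35 ± 0.09. The ranges of ATF5 touched, and with DMSO replicate 3 left out ATF5 was no longer called (adjusted p = 0.0533, edgeR), nor was it with AF replicate 3 left out (adjusted p = 0.0518).

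The other 3 factors were not called. NUPR1, a small stress-induced chromatin protein, had a log2 fold change of 0.23 ± 0.10, JDP2, a repressor that pairs with AP-1 and ATF factors, 0.10 ± 0.09, and CEBPG, the partner with which ATF4 binds DNA, 0.09 ± 0.08. Their 95% intervals reached up to 0.45, 0.30 and 0.25. Without AF replicate 1 NUPR1 was at 0.12 and JDP2 at 0.025, and CEBPG was at 0.015 without AF replicate 4. In simulated counts for this comparison, edgeR recovered 12% of changes of 0.3 on the log2 scale, 54% of those of 0.5 and 94% of those of 0.8 (50 genes at each size, 17274 genes in the fit). It also called 14 genes that had not been changed. Only those 50 genes at each size were changed in the simulation, whereas 2705 genes were called in the data. The adjustment over all genes was therefore stricter in the simulation, and its rates may be too low for these data. The changed genes were drawn from those with a mean over 50 counts, so these rates do not cover ASNS.

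**Figure D2:**
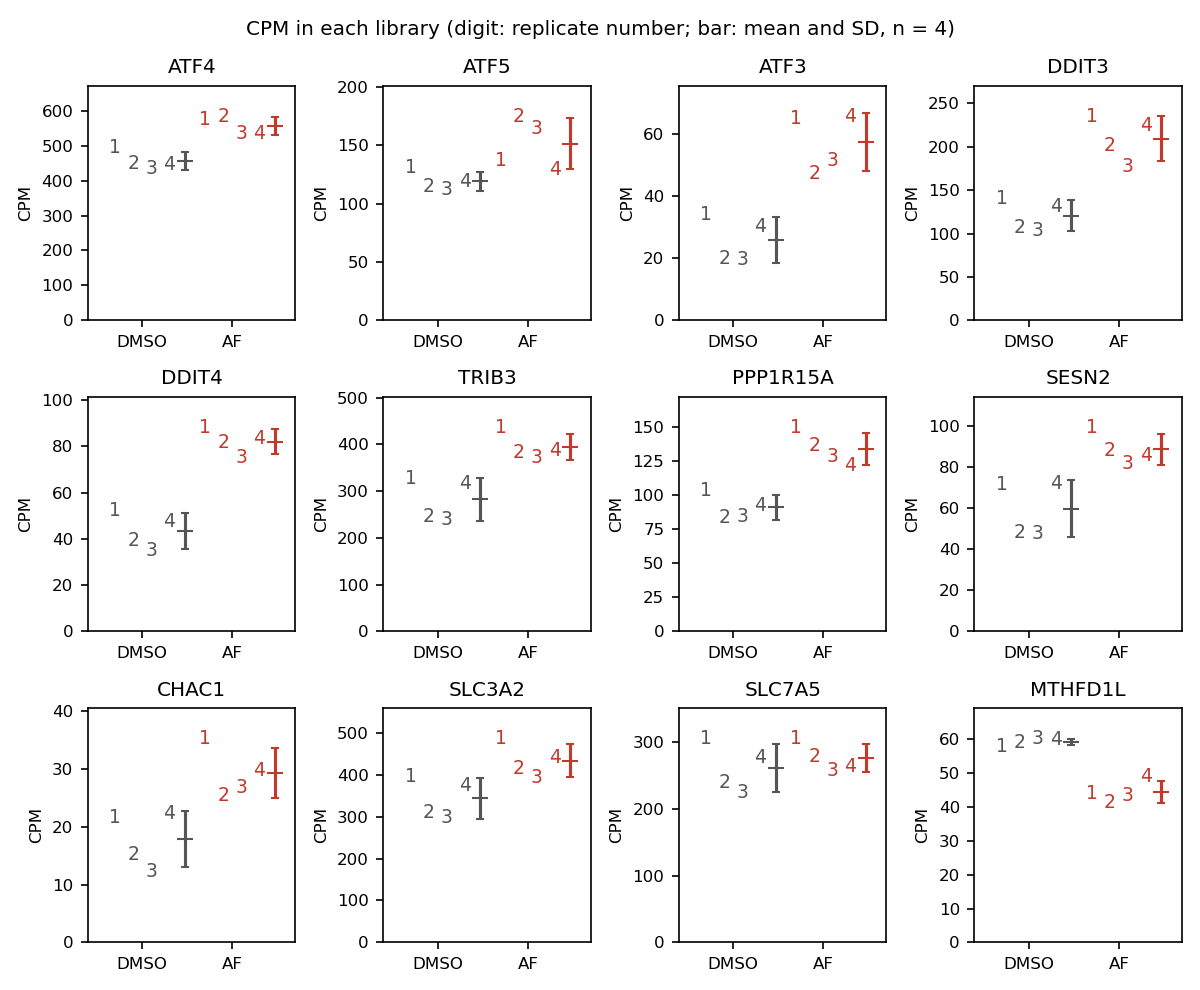
CPM of 12 genes in each library (digits are replicate numbers; bars are the mean and SD of 4 libraries), with each axis starting at 0. For ATF4, ATF3, DDIT3, DDIT4, TRIB3, PPP1R15A, SESN2 and CHAC1 all AF values lie above all DMSO values, MTHFD1L shows the reverse, and ATF5, SLC3A2 and SLC7A5 overlap.

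Of the effectors that restrain growth signalling, restore translation or act on the cell's redox state, 5 of 8 rose. DDIT4 (REDD1), an inhibitor of mTORC1, stood at 52.1, 39.1, 35.1 and 47.4 CPM in DMSO and at 88.1, 81.5, 75.1 and 83.4 CPM in AF. The groups were far apart, and the log2 fold change was 0.92 ± 0.10, or 1.89-fold (adjusted p = 3.4e-05, edgeR). An antisense gene covers 41.2% of its exon bases, so without the strand setting of the counting some reads may belong to either. SESN2, a leucine sensor that also lowers mTORC1 activity, ranged from 47.5 to 72.2 CPM in DMSO and from 81.6 to 99.4 in AF, with a log2 fold change of 0.57 ± 0.12.

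PPP1R15A (GADD34), the inducible subunit that directs a phosphatase to eIF2 alpha and so ends the response, stood at 104, 84.1, 84.7 and 92.7 CPM in DMSO and at 149.9, 136, 129 and 122 CPM in AF. No AF library was as low as a DMSO library, and the log2 fold change was 0.55 ± 0.08, or 1.47-fold (adjusted p = 0.000249, edgeR). Its constitutive relative PPP1R15B ranged from 167 to 199 CPM in DMSO and from 193 to 208 in AF, which overlap. PPP1R15B had a log2 fold change of 0.13 ± 0.07 and was not called (adjusted p = 0.193, edgeR).

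TRIB3, a pseudokinase that feeds back on ATF4 and CHOP, stood at 328, 246, 239 and 317 CPM in DMSO and at 436, 383, 372 and 386 CPM in AF. DMSO replicates 1 and 4 came nearest to the AF libraries while 2 and 3 lay well below, and the log2 fold change was 0.48 ± 0.10, or 1.40-fold (adjusted p = 0.0049, edgeR). CHAC1, an enzyme that breaks down glutathione, ranged from 12.3 to 22.3 CPM in DMSO and from 25.5 to 35.2 in AF, and its log2 fold change was 0.71 ± 0.17. STC2, a secreted glycoprotein, had a log2 fold change of 0.12 ± 0.12 and was not called. EIF4EBP1, the repressor of cap-dependent translation, had one of -0.18 ± 0.09 and was not called, but was called lower without AF replicate 1, at -0.27 (adjusted p = 0.0309, edgeR).

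Upstream, the kinase genes differed little between the groups. EIF2AK3 (PERK) stood at 34.2, 30.0, 31.2 and 35.7 CPM in DMSO and at 36.2, 34.4, 37.4 and 46.2 CPM in AF. The ranges overlapped and AF replicate 4 alone was clearly higher; the log2 fold change was 0.23 ± 0.10 (adjusted p = 0.132, edgeR), and 0.14 without AF replicate 4. EIF2AK4 (GCN2) stood at 86.7, 76.1, 72.9 and 79.7 CPM in DMSO and at 88.1, 87.8, 85.5 and 86.4 CPM in AF. Its AF values lay close together, DMSO replicate 1 reached into them, and the log2 fold change was 0.14 ± 0.06 (adjusted p = 0.121, edgeR). Without DMSO replicate 1, EIF2AK4 was called, at 0.19 (adjusted p = 0.0444). EIF2AK1 (HRI) had a log2 fold change of 0.11 ± 0.05 and EIF2S1, their substrate, one of -0.09 ± 0.06, and neither was called.

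In the serine and one-carbon pathway, which makes serine from a glycolytic intermediate and passes its carbon to folate in the mitochondria, the one called gene fell. MTHFD1L, the mitochondrial formate-producing enzyme, stood at 57.9, 58.8, 60.1 and 59.7 CPM in DMSO and at 44.1, 41.1, 43.2 and 48.9 CPM in AF. The DMSO libraries lay close together, and every AF library lay below them. The log2 fold change was -0.42 ± 0.06 (adjusted p = 0.000573, edgeR), and between -0.47 and -0.38 with any one library left out.

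SHMT2, which splits serine to feed mitochondrial folate, came next by p. It stood at 231, 218, 209 and 219 CPM in DMSO and at 262, 258, 236 and 233 CPM in AF. All AF values were above all DMSO values by a narrow margin, but the log2 fold change of 0.17 ± 0.06 was not called (adjusted p = 0.0646, edgeR). SHMT2 was called without AF replicate 4 (0.20, adjusted p = 0.0262, edgeR) and by DESeq2 (adjusted p = 0.0402). PHGDH, the first enzyme of serine synthesis, stood at 162, 146, 137 and 149.5 CPM in DMSO and at 169, 163, 150.03 and 148 CPM in AF. The groups of PHGDH overlapped, with replicate 1 highest in both, and the log2 fold change was 0.08 ± 0.06, with a 95% interval from -0.05 to 0.22.

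The remaining enzymes of the pathway were not called. The log2 fold change was -0.03 ± 0.10 for PSAT1 and 0.05 ± 0.11 for PSPH, which complete serine synthesis, 0.13 ± 0.08 for MTHFD2, the mitochondrial dehydrogenase that ATF4 is known to induce, and -0.01 ± 0.07 for ALDH1L2, which oxidises formyl-folate. PSPH shares sequence with the pseudogene PSPHP1, which held 59 to 104 counts against 505 to 825 for PSPH.

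**Figure D3:**
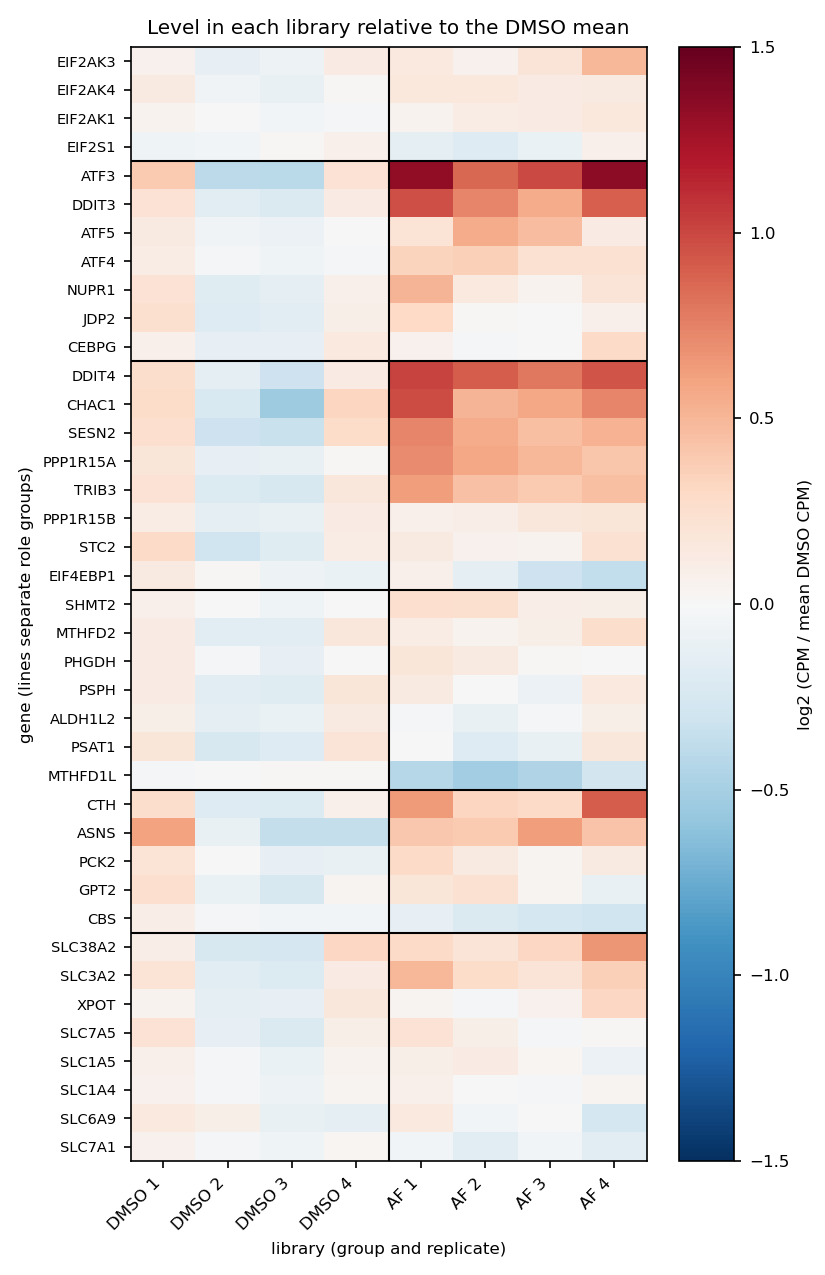
Level of each gene in each library as log2 of its CPM over the DMSO mean, with genes in rows by role and libraries in columns. Red bands across all 4 AF columns appear for ATF3, DDIT3, DDIT4, CHAC1, SESN2, PPP1R15A and TRIB3, the blue bands in AF are MTHFD1L and CBS, and DMSO columns 2 and 3 are paler or bluer than 1 and 4 in most rows.

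Among other enzymes of amino acid metabolism, the 2 genes of the transsulfuration pathway, by which homocysteine becomes cysteine, moved in opposite directions. CBS, the first step, stood at 65.9, 60.7, 59.5 and 59.5 CPM in DMSO and at 56.3, 53.0, 51.2 and 50.0 CPM in AF, without overlap. Its log2 fold change was -0.22 ± 0.06 (adjusted p = 0.0215, edgeR). Leaving out DMSO replicate 1 ended the CBS call (adjusted p = 0.0864), as did leaving out DMSO replicate 2 (0.0559) or AF replicate 3 (0.0881). GRCh38 holds a near-identical copy, CBSL, so CBS counts depend on how reads that fit both were treated. CTH, the second step, stood at 4.07, 2.95, 2.94 and 3.56 CPM in DMSO and at 5.25, 4.24, 4.13 and 6.32 CPM in AF. CTH did not overlap between groups either, but it had only 69 to 162 counts per library, and its log2 fold change was 0.55 ± 0.17 (adjusted p = 0.0401, edgeR). CTH was not called with DMSO replicate 2, 3 or 4 left out (adjusted p = 0.126, 0.120 and 0.0579 in edgeR) or with AF replicate 1 or 4 left out (0.0657 and 0.106). It was not called either with the suffix of the library names as a covariate (adjusted p = 0.0510, edgeR).

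ASNS, asparagine synthetase and a standard reporter of ATF4, could hardly be read here. It had 15 to 44 counts per library, or 1.40, 0.854, 0.724 and 0.721 CPM in DMSO and 1.22, 1.22, 1.43 and 1.25 CPM in AF. DMSO replicate 1 lay among the AF values, and the log2 fold change was 0.44 ± 0.26 (adjusted p = 0.265, edgeR), with a 95% interval from -0.10 to 0.99. In GENCODE 29 another gene on the same strand overlaps 44.6% of the ASNS exon bases, the highest share among the 39 genes, and that gene had 30 to 71 counts. Whether reads shared by both were dropped was not tested. GPT2, an alanine aminotransferase, and PCK2, mitochondrial PEP carboxykinase, had log2 fold changes of 0.09 ± 0.12 and 0.15 ± 0.08 and were not called; without AF replicate 1 they were at 0.054 and 0.098.

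Of the transporters, the called gene was SLC3A2, the heavy chain (CD98) that brings several amino acid exchangers to the cell surface. It stood at 395, 309, 297 and 373 CPM in DMSO and at 486, 414, 394 and 440.04 CPM in AF. DMSO replicate 1 was level with AF replicate 3, and the log2 fold change was 0.34 ± 0.10 (adjusted p = 0.0277, edgeR). With DMSO replicate 2 or 3 left out SLC3A2 was not called (adjusted p = 0.0968 and 0.0909, edgeR). SLC7A5 (LAT1), 1 of its light chains, which imports leucine, stood at 305, 240.0, 225 and 277 CPM in DMSO and at 305, 278, 258 and 264 CPM in AF. The groups of SLC7A5 overlapped over most of their range, with a log2 fold change of 0.08 ± 0.09 and a 95% interval from -0.11 to 0.27.

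SLC38A2 (SNAT2), a glutamine carrier that is known to rise under amino acid shortage, stood at 359, 282, 281 and 415 CPM in DMSO and at 407, 383, 413 and 528 CPM in AF. Both groups spread widely and overlapped, with replicate 4 highest in each. The log2 fold change of 0.37 ± 0.12 was just short of a call (adjusted p = 0.0555, edgeR), and leaving out DMSO replicate 4 brought SLC38A2 past the threshold (adjusted p = 0.0111), as did leaving out AF replicate 1 (0.0300) or 2 (0.0393). The arginine transporter SLC7A1 had a log2 fold change of -0.10 ± 0.05, the neutral amino acid transporters SLC1A4 and SLC1A5 0.03 ± 0.05 and 0.04 ± 0.06, the glycine transporter SLC6A9 -0.04 ± 0.14 at 66 to 115 counts, and the tRNA exporter XPOT 0.11 ± 0.08. None of these 5 was called.

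Levels between genes were compared as CPM per kilobase of exon, in vehicle foam cells. The length was that of all GENCODE 29 exons of the gene merged, from 1.07 kb in EIF4EBP1 to 11.96 kb in EIF2AK4. It can exceed the length of the transcript in use, so the order depends on it. ATF4 was highest at 181 ± 10.4 (SD, n = 4), followed by DDIT3 at 92.2 ± 13.7, TRIB3 at 82.2 ± 13.6 and EIF4EBP1 at 77.1 ± 5.89. The last 3 lie within each other's spread. ATF3 at 6.42 ± 1.83, EIF2AK3 at 6.03 ± 0.49 and EIF2AK4 at 6.59 ± 0.50 lay near the lower end, and CTH at 1.40 ± 0.23, SLC6A9 at 0.678 ± 0.067 and ASNS at 0.208 ± 0.073 were the lowest. CHOP and TRIB3 messengers were thus among the highest of the 39 by this measure without the drug. By CPM alone DDIT3 stood at 121 and TRIB3 at 282 in DMSO, against 344 for SLC3A2 and 262 for SLC7A5. In AF DDIT3 reached 160.2 ± 19.7 and ATF3 14.2 ± 2.32 CPM per kilobase.

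The vehicle libraries were not alike for these genes. DMSO replicates 1 and 4 were both above replicates 2 and 3 in 30 of the 39 genes (76.9%), against 24.3% of all genes tested, and the opposite order occurred in 0 of 39, against 24.9% of all genes. In AF, replicates 1 and 4 were both above 2 and 3 in 16 of 39 (41.0%, against 19.7% of all genes) and below them in 1 (2.56%, against 18.0%). This order was seen in the counts and is in no label, and it crosses the library names, in which DMSO replicates 1 and 2 share one stem and 3 and 4 another. For the 11 called genes the median log2 ratio to the DMSO mean was 0.22, -0.17, -0.22 and 0.12 in DMSO replicates 1 to 4 and 0.71, 0.55, 0.47 and 0.52 in AF replicates 1 to 4. For serine and one-carbon enzymes it was 0.12, -0.13, -0.12 and 0.14 in DMSO and 0.11, 0.00056, -0.01 and 0.09 in AF, so the spread among vehicle libraries was wider than the difference between groups.

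**Figure D4:**
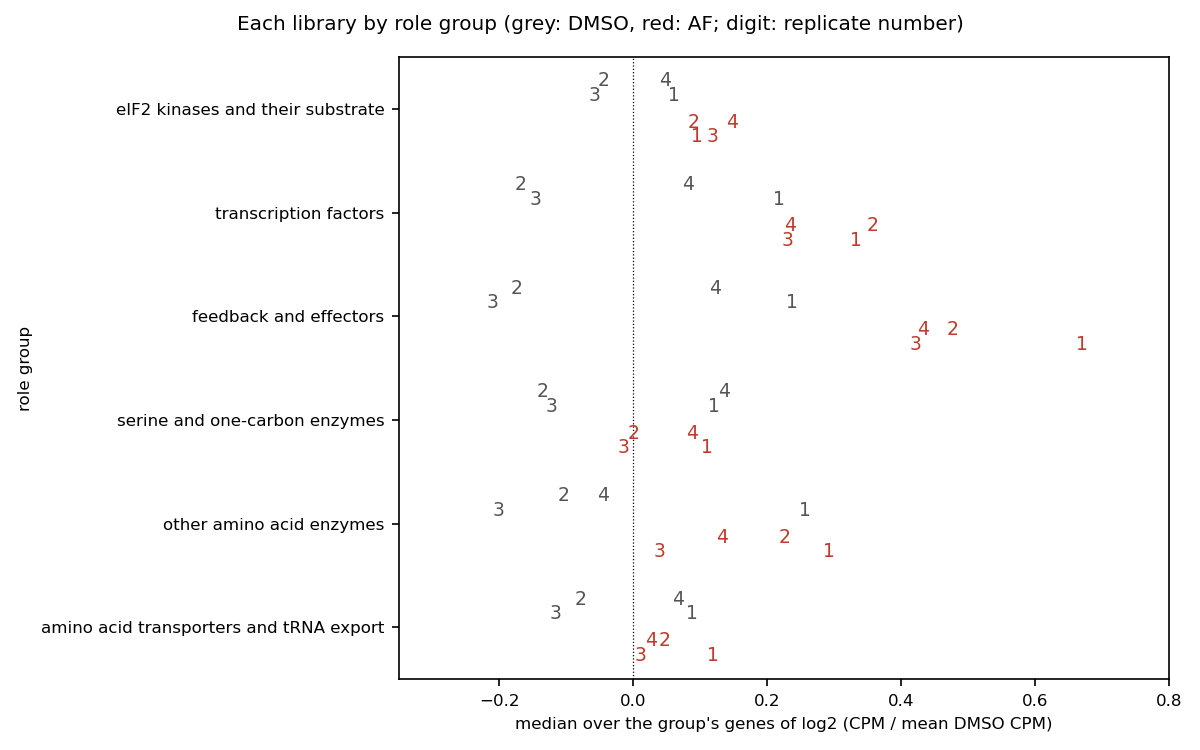
Median over the genes of each role of the log2 ratio of CPM to the DMSO mean, 1 digit (replicate number) per library, grey for DMSO and red for AF. In feedback genes the AF libraries lie between 0.42 and 0.67 and the DMSO libraries between -0.21 and 0.24, whereas in serine and one-carbon enzymes and in transporters the groups overlap.

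Other genes of the pathway outside the 39 were followed in 4 lists of 73 genes, of which 70 were tested: 12 were higher (17.1%, against 7.62% of all genes) and 8 lower (11.4%, against 7.81%), with a median log2 fold change of 0.02. Without DMSO replicate 2 these counts were 7 and 4, without DMSO replicate 3 they were 8 and 6, and without AF replicate 3 also 8 and 6; with library totals alone they were 1 and 3. Over all genes tested the calls also fell, from 2705 to 1616, 1648 and 1660 without those 3 libraries and to 883 with library totals alone. Of 19 tested targets credited to ATF4 or CHOP, 9 were higher (47.4%) and 0 lower, with a median of 0.24. TNFRSF10B, the death receptor DR5 that CHOP induces, stood at 50.7 ± 6.76 CPM in DMSO and 104 ± 8.67 in AF (log2 fold change 1.03 ± 0.09, adjusted p = 4.7e-06, edgeR), and HERPUD1, which aids removal of misfolded proteins, rose by 0.58 ± 0.10 (adjusted p = 0.00102, edgeR). These targets also answer to other pathways, and their list is not independent of earlier results of these data.

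Of 16 subunits and regulators of eIF2 and its exchange factor eIF2B, 2 were higher (12.5%, against 7.62% of all genes) and 0 lower (median 0.02). EIF2A, an alternative initiation factor that is not a subunit of eIF2 despite its name, rose by 0.22 ± 0.06. NCK1, an adaptor that binds PERK, rose by 0.29 ± 0.09. In the folate and methionine cycle 5 of 16 tested genes were lower (31.25%, against 7.81% of all genes) and 0 higher, with a median of -0.15. MTR, methionine synthase, fell from 76.6 ± 2.74 to 58.8 ± 2.23 CPM (log2 fold change -0.38 ± 0.05, adjusted p = 0.000291, edgeR). Of 19 other amino acid transporters and sensors, 1 was higher (5.26%, against 7.62%) and 3 lower (15.8%, against 7.81%), with a median of -0.01. SLC7A2, a carrier of arginine and lysine, rose from 8.09 ± 0.707 to 13.3 ± 1.03 CPM (0.72 ± 0.09), the glutamine carrier SLC38A5 fell from 13.2 ± 1.08 to 8.02 ± 0.555 CPM (-0.72 ± 0.09), and the sestrin SESN3 fell by 0.31 ± 0.08, unlike its relative SESN2.

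**Figure D5:**
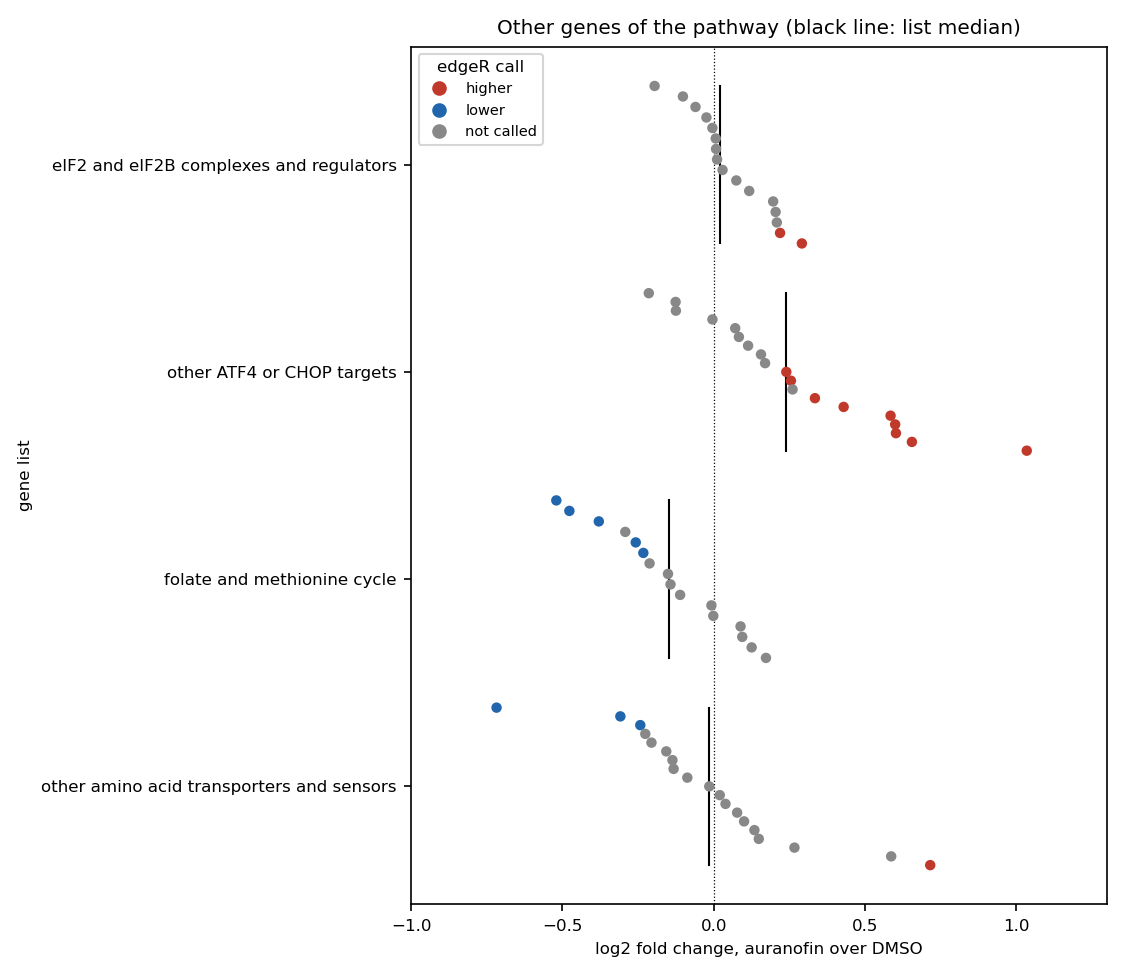
Log2 fold change (auranofin over DMSO) of the 70 tested pathway genes outside the 39, 1 point per gene in 4 lists, with the list median as a black line; red is called higher, blue lower and grey not called. Red points gather among the ATF4 or CHOP targets (9 of 19, median 0.24) and blue points in the folate and methionine cycle (5 of 16, median -0.15).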

How the data were processed

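Poly-A RNA of 8 THP-1 foam cell libraries (250 ng of total RNA each, stranded preparation, per the labels' protocols) was sequenced. The authors deposited raw counts per gene, with no normalisation applied. Per the submitters' processing notes, the tools and build were STAR 2.6.1d, featureCounts (Subread 1.6.3) and GRCh38. For annotation, strand setting and overlapping or multi-mapped reads, the choice is not given in the sources used here. Columns were matched to samples by title. The counts were fitted with edgeR 4.0.16 in R 4.3.3 (TMM, filterByExpr, glmQLFit, glmQLFTest, 17535 genes, 6 residual degrees of freedom, two-sided, Benjamini-Hochberg over all genes, threshold 0.05), drug against vehicle, no block. A standard error is the log2 fold change over the square root of F, and 95% intervals use the t distribution. Positions and exon lengths come from GENCODE 29 on GRCh38, promoters from RefSeq.

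All 39 genes are named. Values in every library are given for the 2 smallest p in each role group, for 10 genes fixed by name and for genes called lower; of the other pathway lists, the 2 called genes with the smallest p in each direction are named, except 1 gene that is not reported here. The light chains SLC7A6, SLC7A7, SLC7A8 and SLC7A11 are named in addition, beside SLC3A2. The members and lists were chosen with earlier results of these data known. No 2 libraries of a group agreed within sampling noise (chi-square per degree of freedom 2.78 or more). Equal replicate numbers were not treated as pairs. Alternatives were DESeq2 1.42.0, other scalings, filters and covariates, summed libraries, leaving out each library and a fit of protein-coding genes only, which was chosen after seeing the data. The sources describe no molecular identifiers, and PCR copies may be among the counts.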

Additional observations from a re-analysis of the deposited data

Results flagged for a closer look

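In the 39 genes, each with 4 DMSO and 4 AF values (78 sets of 4), 1 library lay far from the other 3 of its group by Dixon's ratio (gap over range, at the 95% critical value for 4 samples). ASNS stood at 1.43 CPM in AF replicate 3, against 1.22 to 1.25 CPM in the other AF libraries, a ratio of 0.851. Chance flags about 1 in 20 such sets, and the ASNS values rest on 15 to 44 counts.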

How the results depend on the processing

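Over 18 alternatives, 637 of 702 values of single genes kept their direction and their side of the threshold, 23 lost a call, 18 gained one and 24 changed sign, none of them a called gene. Scaling by library totals alone gave 3 genes higher and 1 lower, and 1 and 3 in the other pathway lists; by construction the ribosomal RNA of AF replicate 1 lowers its other values there. That scaling turned 15 uncalled genes negative: EIF2AK1 (-0.033), EIF2AK4 (-0.012), CEBPG (-0.064), JDP2 (-0.071), PPP1R15B (-0.013), STC2 (-0.030), PHGDH (-0.077), PSPH (-0.11), MTHFD2 (-0.020), GPT2 (-0.072), PCK2 (-0.012), SLC7A5 (-0.088), SLC1A4 (-0.13), SLC1A5 (-0.11) and XPOT (-0.039). With ribosomal RNA entries removed before totals were taken, 11 and 2 were called, the same genes as reported. With no filter on low counts 13 were higher and 1 lower (CBS was lost, adjusted p = 0.0557); the cause was not tested. With 1 library left out, 8 to 12 genes were higher and 1 to 3 lower, and in the other lists 7 to 15 higher and 4 to 9 lower. With the suffix of the library names as a covariate 10 were higher (CTH was lost) and 2 lower. With the libraries of one name stem summed 12 were higher (SLC38A2 was added) and 2 lower. With 1 library left out PSAT1 lay between -0.10 and 0.041, ALDH1L2 between -0.055 and 0.035, SLC6A9 between -0.10 and 0.025 and PSPH between -0.0076 and 0.11.

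With the replicate number as a block, 16 genes were higher and 3 lower, and 16 and 12 in the other lists; the added genes were EIF2AK3, NUPR1, PCK2, SHMT2 and SLC38A2, and EIF4EBP1 lower. The numbers are not known to pair libraries: same-numbered correlations of deviations were 0.09, 0.13, 0.03 and 0.19, and replicate 3 of each group correlated best with replicate 2 of the other. The genes with the fewest counts were ASNS (15 to 44 per library), SLC6A9 (66 to 115) and CTH (69 to 162), and the part of depth in which genes were called was not tested.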
